A study of Mus musculus with 2 samples.

Results

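Binding of Isl1, a LIM-homeodomain transcription factor of cardiac progenitors, was examined at 41 genes of the Bmp and Tgf-beta pathway in mouse embryos. The genes were 14 ligands, 12 receptors, 8 Smads, 4 antagonists and 3 Id targets, and a peak was counted for a gene when the peak list named that gene as the one with the closest transcription start site (TSS). Of the 41 genes, 35 had at least 1 peak (85.4%, against 52.5% of 20121 protein-coding genes). To them belonged 151 of the 48295 peaks of the list. Chromatin immunoprecipitation followed by sequencing (ChIP-Seq) had been performed with an anti-Isl1 antibody on cardiogenic mesoderm and heart region of C57BL/6 embryos at E8.25 to E9. Each immunoprecipitation used 60 to 80 pooled embryos, which were crosslinked with 1% formaldehyde for 15 min and sheared to fragments of 200 to 500 bp. No mutation or treatment was involved, and the sample held every cell type of the dissected region, not Isl1-positive cells alone. The matching input sample was not analysed here. The list gives positions and gene names without any measure of expression, so the dissected tissue could not be checked against marker genes. It also gives no height or significance for a peak, the number of reads is unknown, and whether peaks of replicates had been combined could not be settled. All values below therefore describe 1 peak list, with no replicate spread and no test.

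Bmp and Tgf-beta ligands are secreted dimers that bring together type I and type II serine/threonine kinase receptors, and the activated type I receptor phosphorylates receptor-regulated Smads. Smad1, Smad5 and Smad9 carry the Bmp signal, Smad2 and Smad3 the Tgf-beta, activin and Nodal signal, Smad4 is their common partner, and Smad6 and Smad7 are inhibitory. Extracellular antagonists such as Noggin bind the ligands, and the Id genes are among the direct transcriptional targets of Bmp signalling. In the embryonic heart the pathway is known for its part in cardiac specification, outflow tract formation, endocardial cushion formation and trabecular growth.

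The sequence under the peaks of these genes was mostly a long, uninterrupted run of purines (A and G) or pyrimidines (C and T). Within 100 bp of the peak midpoint, 143 of the 151 peaks (94.7%, 95% Wilson interval 89.9 to 97.3%) held such a run of at least 25 bases, against 94.1% of all peaks of the list and 3.97% of 302 windows placed 1 kb to either side of the pathway peaks. The closest peaks of 4 genes and the pathway peak with the longest run, 321 kb upstream of Tgfbr2, are printed to show what such sequence looks like. Each is the central 120 bases in mm9, read on the + strand from 5′ to 3′, and capitals mark the bases of the longest run that fall in the printed stretch.
Bmp4 (chr14:47015209-47015328): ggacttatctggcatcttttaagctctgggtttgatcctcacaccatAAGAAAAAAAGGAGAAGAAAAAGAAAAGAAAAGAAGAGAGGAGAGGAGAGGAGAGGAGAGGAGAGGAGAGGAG
Bmp10 (chr6:87372010-87372129): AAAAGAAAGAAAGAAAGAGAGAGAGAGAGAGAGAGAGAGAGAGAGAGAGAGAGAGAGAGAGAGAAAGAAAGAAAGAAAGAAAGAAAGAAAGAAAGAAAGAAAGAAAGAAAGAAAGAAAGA
Tgfb2 (chr1:188525838-188525957): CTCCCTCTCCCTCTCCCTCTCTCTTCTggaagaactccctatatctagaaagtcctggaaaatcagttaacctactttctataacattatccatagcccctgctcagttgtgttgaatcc
Nog (chr11:89164587-89164706): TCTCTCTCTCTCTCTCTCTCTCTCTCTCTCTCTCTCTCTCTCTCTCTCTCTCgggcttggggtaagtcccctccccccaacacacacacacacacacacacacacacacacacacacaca
Tgfbr2 (chr9:116404984-116405103): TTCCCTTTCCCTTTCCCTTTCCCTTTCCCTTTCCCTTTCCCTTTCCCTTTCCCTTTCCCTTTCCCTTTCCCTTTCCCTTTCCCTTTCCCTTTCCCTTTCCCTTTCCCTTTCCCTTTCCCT

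The run at Bmp4, the ligand of early mesoderm and outflow tract, was a purine stretch of 208 bases. At Bmp10, a ligand of the trabecular myocardium, 141 purines followed each other, mainly as repeats of GA and GAAA. A single unit, TTTCCC, was repeated along the printed stretch at Tgfbr2, where the run reached 508 bases. The run of the Tgfb2 peak extended beyond the printed stretch, to 153 bases. Nog had a shorter run of 65 bases, with CT repeated along the printed part.

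The other 8 peaks held no run of 25 bases, and they belonged to Inhbb, Bmpr1a, Bmpr1b, Acvrl1, Smad4, Smad5, Smad6 and Chrd. The central 200 bases of 5 of these peaks are printed for comparison, again in mm9 on the + strand. Those at Bmpr1b, Smad6 and Acvrl1 were chosen for printing after their values were seen. Capitals mark TAAT on either strand (TAAT or ATTA), the core of many homeodomain binding sites.
Bmpr1a (chr14:35321052-35321251): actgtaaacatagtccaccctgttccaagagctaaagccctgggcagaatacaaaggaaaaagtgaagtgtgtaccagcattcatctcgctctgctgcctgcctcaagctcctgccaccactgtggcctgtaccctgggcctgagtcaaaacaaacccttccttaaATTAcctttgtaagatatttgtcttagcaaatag
Chrd (chr16:20731969-20732168): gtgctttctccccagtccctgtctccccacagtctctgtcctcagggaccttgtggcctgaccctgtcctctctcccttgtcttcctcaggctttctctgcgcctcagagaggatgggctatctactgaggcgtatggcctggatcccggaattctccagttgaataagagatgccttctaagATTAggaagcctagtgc
Bmpr1b (chr3:141621321-141621520): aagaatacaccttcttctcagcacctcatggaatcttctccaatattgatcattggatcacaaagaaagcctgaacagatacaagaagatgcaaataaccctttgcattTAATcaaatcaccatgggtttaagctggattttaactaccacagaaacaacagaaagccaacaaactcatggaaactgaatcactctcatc
Smad6 (chr9:63854933-63855132): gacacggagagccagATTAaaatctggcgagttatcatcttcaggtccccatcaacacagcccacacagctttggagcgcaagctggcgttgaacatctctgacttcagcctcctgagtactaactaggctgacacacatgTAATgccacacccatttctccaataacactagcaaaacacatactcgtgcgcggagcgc
Acvrl1 (chr15:100971710-100971909): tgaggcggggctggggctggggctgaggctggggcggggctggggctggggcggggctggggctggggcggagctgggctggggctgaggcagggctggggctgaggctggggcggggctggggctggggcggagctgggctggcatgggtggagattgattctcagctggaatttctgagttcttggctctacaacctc

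A single TAAT lay in the windows of Bmpr1a, Chrd and Bmpr1b, the Smad6 window held a pair of them, and the window of Acvrl1, a GC-rich tandem repeat within the gene, held none. TAAT on either strand was present in the central 200 bp of 59 of the 151 pathway peaks (39.1%), against 35.3% of all peaks of the list. Windows of the same length 1 kb away held it in 71.2% of cases around pathway peaks and in 73.4% around all peaks. Peaks without a run held TAAT at 5 of 8 pathway positions (62.5%) and at 37.3% of such positions over the list. The longer letters CTAATG, which contain TAAT, were found at 3 pathway peaks (1.99%), 1 each of Inhba, Tgfbr2 and Acvr2a, against 2.66% of all peaks and 4.30% of the windows beside pathway peaks. The share with TAAT was lower at the centres of the peaks than 1 kb away, both for the pathway and for the list. A run of purines or pyrimidines cannot contain TAAT, but the part of the runs in this difference was not tested. Over the list, the peaks without a run, at 37.3%, were also below the 73.4% of windows 1 kb away.

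At the level of genes, 35 of 41 pathway genes (85.4%, Wilson interval 71.6 to 93.1%) had an Isl1 peak, whereas 52.5% of 20121 protein-coding genes did. At least 2 peaks were found at 26 genes (63.4%), against 30.9% of all genes, and at least 10 peaks at Tgfbr2, Acvr2a and Inhba (7.32%), against 3.78%. A peak within 10 kb of the TSS was present at 18 genes (43.9%), against 26.0% of all genes. By the listed distance, peaks within 1 kb of the TSS, where promoters lie, were found at 4 genes, Smad4, Smad5, Nog and Inhbb (9.76%), against 5.22% of all genes. By position, peaks also lay 0.064 kb from an annotated start of Acvr1 and 0.429 kb from one of Tgfb2, but the list gave them to another gene or to another start. The median gene of the pathway had 2 peaks and the median protein-coding gene 1, and the pathway peaks lay at a median of 54.6 kb from the TSS, against 58.8 kb for all peaks.

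**Figure D1:**
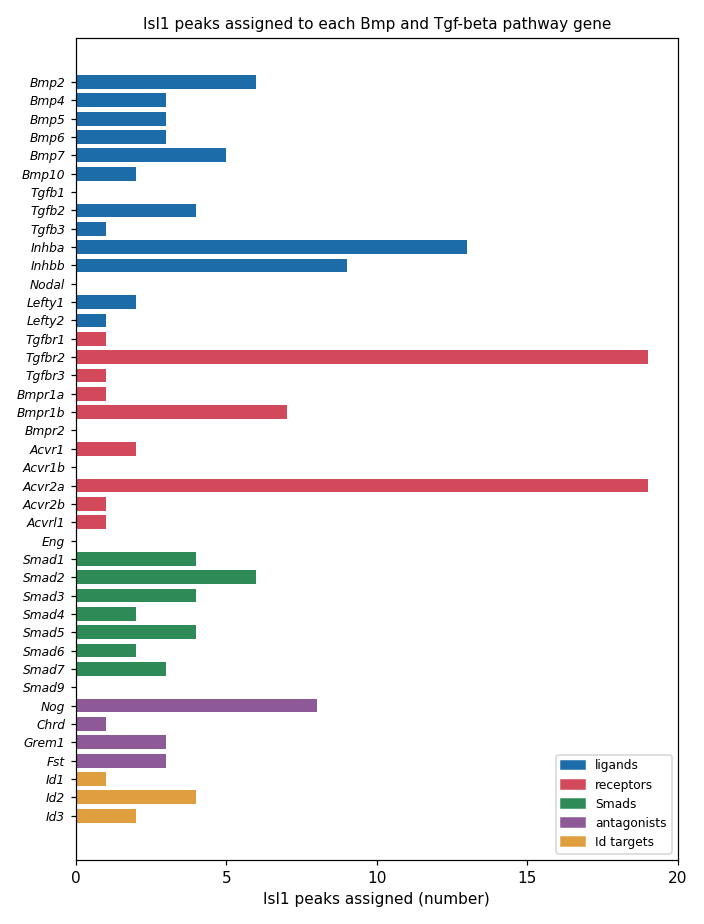
Number of Isl1 peaks assigned to each of the 41 genes (x axis, number of peaks in 1 list; y axis, genes; colours, roles). Tgfbr2 and Acvr2a reach 19 peaks each and Inhba 13, while Tgfb1, Nodal, Bmpr2, Acvr1b, Eng and Smad9 have none.

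Since a peak is given to the closest TSS, a gene with distant neighbours can collect more peaks. The territory of a gene, taken as the stretch between the midpoints to the protein-coding TSS on either side, had a median of 129 kb for the pathway genes and 46.2 kb for all genes, and 30 of the 41 genes exceeded that median. Among genes with a territory under 50 kb, 6 of 11 pathway genes had a peak, against 30.2% of all such genes. Between 50 and 200 kb the counts were 16 of 17 against 71.0%, and from 200 kb upward 13 of 13 against 93.9%. Applied to the territories of the 41 genes, the shares of all genes amount to 27.6 genes with a peak, compared with the 35 observed. Territories still differ within a bin, and the 41 genes were chosen with earlier results of these data known, so this difference was not tested. Densities were taken by position, counting every peak in a territory whichever gene the list named, which gives 201 peaks for the pathway instead of 151. Per 100 kb of territory, the median pathway gene had 2.29 such peaks and the median of all genes was 0.984. Pooled over territories, the difference was smaller, with 2.05 peaks per 100 kb in the pathway and 1.82 over all genes.

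**Figure D2:**
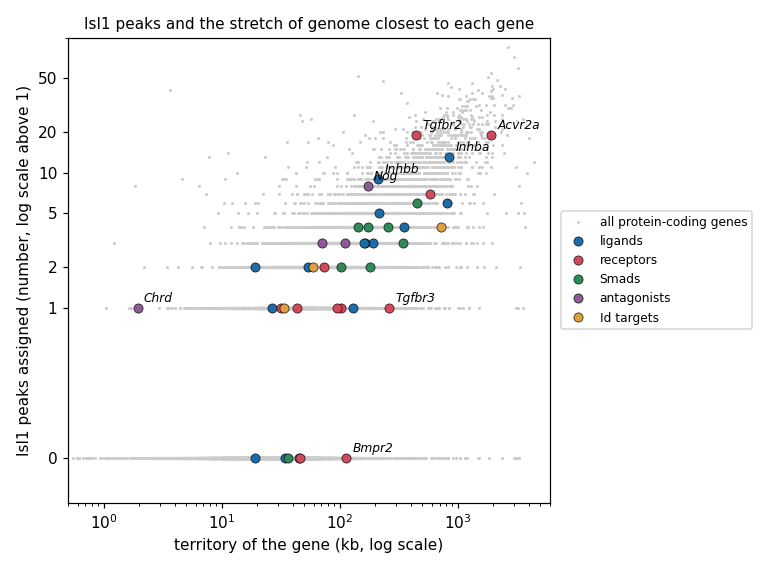
Isl1 peaks assigned to a gene (y axis, number, logarithmic above 1) against the territory of the gene (x axis, kb, logarithmic), with grey points for all 20121 protein-coding genes and coloured points for the pathway genes by role. Genes with long territories carry more peaks, Chrd has its peak in a territory of 1.94 kb, and Bmpr2 lacks one in 114 kb.

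Among the ligands of this list, 12 of 14 had a peak (85.7%, against 52.5% of all protein-coding genes), with 52 peaks in total. Ligand genes outside the list, with and without a peak, are named below. Within 10 kb, 7 had one (50.0%, against 26.0%). The median territory of the ligands was 164 kb, against 46.2 kb for all genes. Bmp4 had 3 peaks, all upstream, at 4.92, 47.2 and 73.2 kb, the closest at chr14:47014982-47015556 between genes. The 6 peaks of Bmp2, a ligand needed for cushion formation, were likewise all upstream, but none came closer than 23.9 kb (chr2:133353792-133354191) and the farthest lay at 199 kb. Bmp10 also carried its 2 peaks upstream, at 6.92 kb (chr6:87371904-87372237) and 14.0 kb. Each of these genes thus had the peaks named for it on the 5′ side of the TSS, whereas a peak named for the neighbouring Mir3090 lay 21.8 kb downstream of the Bmp2 start.

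Bmp5 and Bmp7, ligands with overlapping roles in heart development, showed the opposite arrangement. All 3 peaks of Bmp5 lay in its own introns, at 37.7 kb (chr9:75660653-75661176), 42.5 kb and 119 kb downstream of the TSS. The 5 peaks of Bmp7 were also downstream, 3 of them in its introns, beginning at 4.14 kb (chr2:172761520-172761847) and ending at 161 kb. Bmp6 had 3 upstream peaks between 18.0 kb (chr13:38419448-38419770) and 54.6 kb.

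Of the Tgf-beta isoforms, Tgfb2, the isoform of the cushion and outflow myocardium, had 4 peaks, the closest in its intron at chr1:188525589-188526207. The peak upstream of it, at 20.0 kb, was inside an intron of Rrp15. Tgfb3 had a single peak 68.0 kb downstream of its TSS, within an intron of Ttll5 (chr12:87351781-87352117), and Tgfb1 had none. The peak nearest to Tgfb1 lay 38.6 kb away and was assigned to Bckdha.

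Inhba and Inhbb, which encode the activin beta subunits, had 13 and 9 peaks. Inhba combined an intronic peak 5.00 kb from its TSS (chr13:16108352-16109027) with 10 peaks beyond 100 kb, reaching 813 kb downstream. The peaks of Inhbb stayed within 141 kb, and the closest covered its exon at 0.979 kb (chr1:121317617-121318075), with a GC content of 85.5% and no run. A second Inhbb peak lay 1.17 kb from that one, in the intron, and held a run of 143 pyrimidines.

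Lefty1 and Lefty2 encode secreted inhibitors of Nodal from the same ligand family. Lefty1 had a peak over its exon, 1.77 kb from the TSS, and another 14.9 kb upstream, whereas Lefty2 had 1 peak 10.1 kb upstream (chr1:182812952-182813397). Nodal itself, the ligand of left-right patterning, had none, and the nearest peak was assigned to Pald1. With Lefty1 and Lefty2 counted as antagonists, the ligands and antagonists with a peak numbered 10 of 12 and 6 of 6.

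Of 12 receptors, 9 had a peak, against 52.5% of all protein-coding genes, with 52 peaks in total. By the listed distance, only Bmpr1a had a peak within 10 kb (8.33%, against 26.0% of all genes). Counted by position, a peak named for Upp2 lay 0.064 kb from an annotated start of Acvr1. The Acvrl1 peak, listed at 12.9 kb, lay 7.25 kb from an annotated start of that gene. Of the 52 peaks, 32 (61.5%) lay beyond 100 kb, against 37.5% of all peaks. Of these distant peaks, 14 belonged to Tgfbr2, 17 to Acvr2a and 1 to Tgfbr3. Apart from Tgfbr2 and Acvr2a, the 7 receptors with a peak, Tgfbr3 among them, thus had 1 of their 14 peaks beyond 100 kb. Tgfbr2, the type II receptor for Tgf-beta, had 19 peaks from 15.9 kb (chr9:116100270-116100577) to 531 kb, of which 13 were upstream, 4 fell in introns of Gadl1 and 4 in introns of Rbms3. A pair of its upstream peaks stood only 0.745 kb apart, midpoint to midpoint. Acvr2a, an activin type II receptor, had 19 peaks of which 18 were upstream, starting at 41.1 kb (chr2:48628273-48628882) and reaching 1540 kb, in a territory of 1920 kb. Both genes therefore held many peaks but none near the promoter, and per 100 kb of territory Acvr2a had 1.10 peaks by position, below the pooled 1.82 of all genes.

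Among the type I receptors, Bmpr1a had 1 peak 5.42 kb upstream (chr14:35320909-35321395), printed above, with no run. Bmpr1b had 7 peaks assigned to 3 different start sites of the gene, at 17.6 to 64.7 kb, and 6 of them were within the gene. The closest was at chr3:141576731-141577080. Tgfbr1 had 1 peak 31.4 kb upstream (chr4:47334394-47335045), for which the closest protein-coding TSS of the GENCODE annotation was that of Col15a1. Acvrl1, the type I receptor of endothelial cells, had 1 intronic peak at 12.9 kb (chr15:100971639-100971981), and this was also the peak nearest to Acvr1b, which had none, at 32.7 kb.

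Acvr1, a type I receptor with a role in cushion formation, had 2 intronic peaks at 80.3 kb (chr2:58338707-58339116) and 85.5 kb. The gene as annotated spans 179 kb and contained 6 peaks, of which 3 were assigned to Acvr1c and 1 to Upp2, the last 0.064 kb from an annotated Acvr1 start. Acvr2b, the other activin type II receptor, had 1 peak 15.4 kb upstream in an intron of Xylb (chr9:119295693-119296101), with a pyrimidine run of 344 bases. Tgfbr3, the betaglycan co-receptor, had a single intronic peak at 101 kb (chr5:107617622-107618277) within a territory of 261 kb.

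No peak was assigned to Bmpr2, the Bmp type II receptor, or to Eng, the endothelial co-receptor endoglin. The 2 peaks in the territory of Bmpr2 were assigned to the small nucleolar RNA gene Snord11, the nearer at 33.1 kb. Around Eng, by contrast, no peak of the list lay in the gene or within 100 kb of it, and the nearest was 125 kb away.

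**Figure D3:**
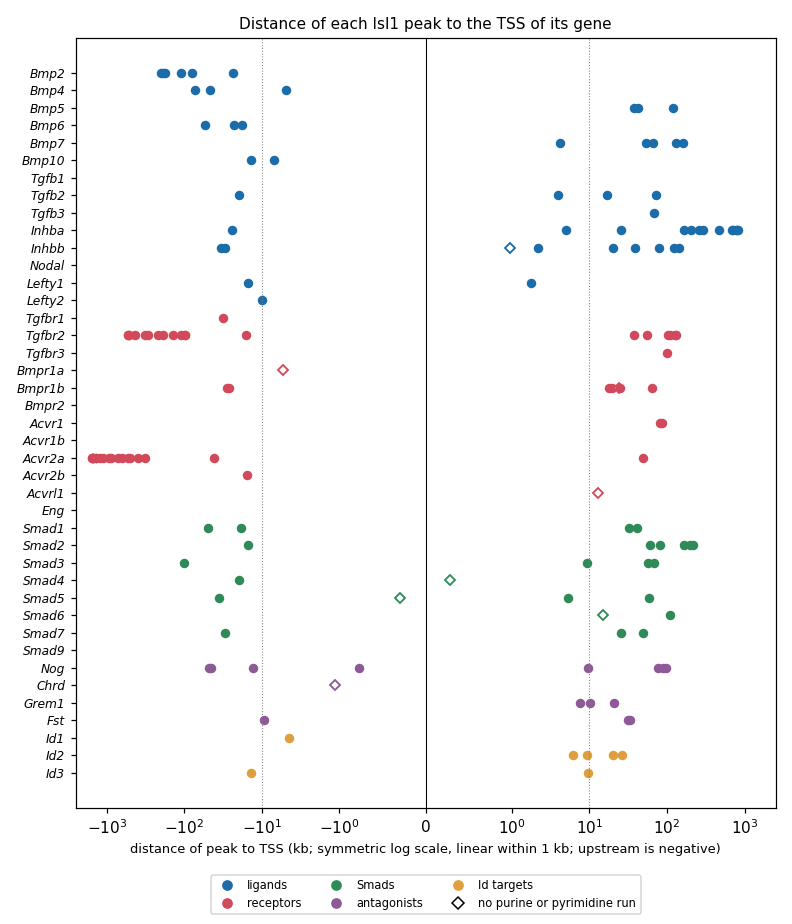
Distance of each of the 151 peaks to the TSS of its gene (x axis, kb, symmetric logarithmic scale, linear within 1 kb, upstream negative) for each gene (y axis), coloured by role, with dotted lines at 10 kb and open diamonds for the 8 peaks without a run. Peaks of Tgfbr2 and Acvr2a extend far upstream, whereas all peaks of the antagonists and Id genes lie within 100 kb.

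The Smad genes, which encode the intracellular transducers, had peaks in 7 of 8 cases (87.5%, against 52.5% of all protein-coding genes), 25 in total. Each of the 7 had at least 2, against 30.9% of all genes. The Smad genes had a median territory of 176 kb, and 71.0% of all genes with territories of 50 to 200 kb had a peak. By the listed distance, Smad4 and Smad5 had the closest peaks of the 41 genes. At Smad4 the peak covered an exon 0.281 kb downstream (chr18:73862878-73863350), and at Smad5 it lay 0.293 kb upstream of the TSS used, over an exon of the gene (chr13:56804536-56804936). Neither held a run, and their GC contents were 85.5 and 77.0%, with 39 and 35 CpG dinucleotides in the central 200 bp. Their other peaks, 1 at Smad4 and 3 at Smad5, all held a run, the closest of them 5.30 kb downstream at Smad5.

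Smad1 had 4 peaks between 18.6 kb (chr8:81941720-81942190) and 49.7 kb, on both sides of the TSS. Smad2 had 6, of which 1 lay 15.2 kb upstream (chr18:76385847-76386481) with a run of 416 bases and the others 60.0 to 216 kb downstream, beyond the end of the gene. Smad3 had 4 peaks, 3 of them in its introns from 9.31 kb on (chr9:63596232-63596740). The transducers of the Bmp branch and of the Tgf-beta branch thus both had peaks, with the exception of Smad9.

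Of the inhibitory Smads, Smad6 had an intronic peak without a run (chr9:63854791-63855276), printed above, and a distant one with a run of 255 bases. Smad7 had 3 peaks, at 25.8 kb (chr18:75552585-75552964), 29.6 kb and 48.8 kb. Smad9 had no assigned peak, although 1 peak within the span of the gene, 27.5 kb from its TSS, was assigned to the neighbouring Rfxap.

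All 4 antagonists had a peak within 10 kb, against 26.0% of all genes. Their closest peaks lay at a median of 4.30 kb. That median was 5.96 kb for the ligands, 6.13 kb for the Id targets, 14.8 kb for the Smads and 17.6 kb for the receptors with a peak. Over all protein-coding genes with a peak the median was 10.2 kb. Noggin (Nog) had 8 peaks within 96.7 kb, 4 on either side. The closest, 0.774 kb upstream (chr11:89164450-89164844), was the only pathway peak with a listed distance under 1 kb that held a run. Chordin (Chrd) had 1 peak 1.13 kb upstream (chr16:20731832-20732307), within an intron of Thpo, in a territory of 1.94 kb. Gremlin 1 (Grem1) had 3 downstream peaks, the closest intronic at 7.46 kb (chr2:113591114-113591573), the next over its exon at 10.3 kb. Follistatin (Fst), which binds activins, had 1 peak 9.52 kb upstream (chr13:115258437-115258916) and 2 at 31.2 and 33.3 kb downstream. Counting every peak by position, whichever gene the list named, the antagonists had 4.24 peaks per 100 kb pooled over their territories. That was the highest of the 5 roles. The Id targets had 3.20, the ligands 2.32, the Smads 2.20 and the receptors 1.28. The antagonist value rests on 15 peaks of 4 genes. The Id value includes 23 peaks in the territory of Id2, of which the list named only 4 for Id2.

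Read on the + strand, the runs under the antagonist peaks were mostly of pyrimidines, which are purines on the other strand. Of these 14 runs, 12 were pyrimidine and 2 purine on the + strand, while over the whole pathway 72 runs were pyrimidine and 71 purine. Nog contributed 7 of the 12, and Nog, Grem1 and Fst, which held all 14 runs, are genes of the - strand. CT or GA repeated over at least 4 units, letters that are part of such a run, were present at 13 of the 15 antagonist peaks (86.7%), at 92 of all 151 pathway peaks (60.9%) and at 56.1% of the whole list.

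The Id genes encode helix-loop-helix inhibitors of differentiation. All 3 listed here had a peak within 10 kb, against 26.0% of all genes. Id4, 1 of the 48 further genes described below, had 6 peaks but none within 10 kb, the closest 27.3 kb upstream. Id1 had 1 peak 4.48 kb upstream. Id2 had 4, all downstream, between 6.13 kb (chr12:25774601-25775050) and 26.4 kb. Id3 had 1 at 9.70 kb downstream (chr4:135709252-135709612) and 1 at 13.9 kb upstream. None of the 7 peaks of Id1, Id2 and Id3 lay within a gene, and all held a run.

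Assignment to the closest TSS gave many peaks around the pathway genes to noncoding genes. When each peak was placed by the closest protein-coding TSS of GENCODE, 201 peaks fell in the territories of the 41 genes, of which 139 carried the name of the pathway gene, 60 the name of a noncoding gene and 2 that of another coding gene. At Id2, 23 peaks fell in the territory, but 17 were named for Gm17746 and 2 for Gm29687. Of 18 around Bmp2, 12 were named for the microRNA gene Mir3090, and of 15 around Tgfb2, 11 were named for A730004F24Rik. Smad7 had 8 such peaks out of 11, and Bmp4 had 3 of 6, all named for the noncoding gene Rubie. In the opposite direction, 12 of the 151 peaks had another closest GENCODE start, among them 6 of the peaks of Tgfbr2. By this placing the number of pathway genes with a peak was again 35, with Bmpr2 gained and Tgfbr1 lost.

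The peaks without a run were unevenly spread over distance. Within 1 kb of the TSS 3 of 4 pathway peaks lacked a run, at 1 to 10 kb 2 of 18, at 10 to 100 kb 3 of 73, and beyond 100 kb 0 of 56, which allows a share of up to 6.42% (upper Wilson bound). Over the whole list the corresponding shares were 49.5%, 5.63%, 4.98% and 4.18%. A peak without a run was found at 8 of the 41 genes (19.5%), against 9.76% of all protein-coding genes. The promoter peaks were rich in GC, with a median of 81.2% over the 4 peaks within 1 kb, compared with 48.5% over all pathway peaks and 63.5% over all peaks of the list within 1 kb. The 3 of them without a run had 77.0 to 85.5% GC and the Nog peak, with its run, 54.0%. The part of GC content and of the runs in the peak calls was not tested.

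**Figure D4:**
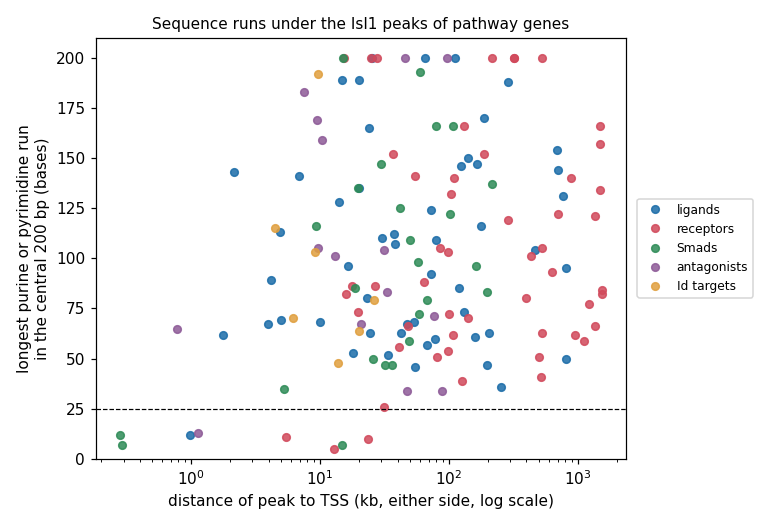
Length of the longest purine or pyrimidine run within the central 200 bp of each pathway peak (y axis, bases, at most 200 by construction) against its distance to the TSS (x axis, kb, logarithmic), coloured by role. The dashed line marks 25 bases, and 5 of the 8 peaks below it lie within 10 kb of the TSS, compared with 17 of the 143 above it.

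Other measures of the pathway peaks are given beside those of the whole list. The median width was 452 bp (270 to 1008 bp), against 466 bp, and the median run 116 bases, against 111. Upstream of the TSS lay 72 peaks (47.7%) and downstream 79, and 47.5% of all peaks were upstream. Between genes lay 93 peaks, in introns 53 and over exons 5, and 20 of the peaks in a gene were in a gene other than the one named. A neighbouring peak within 5 kb was present for 24 of the 151 peaks (15.9%), against 18.6% of the list, and these formed 12 pairs in 9 genes.

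Among 48 further genes of the pathway, 31 had a peak (64.6%, Wilson interval 50.4 to 76.6%), against 52.5% of all protein-coding genes, a share within that interval. The interval covers counting error only and is no test, since this list too was chosen with earlier results of these data known. They held 125 peaks and had a median territory of 63.1 kb. Bmper, a modulator of Bmp signalling, had 21 peaks. A peak within 1 kb of the TSS was present at 5.22% of all protein-coding genes. In this set such peaks were found at Smurf1, a ubiquitin ligase for Smads (0.035 kb), and at the ligand genes Gdf11 (0.130 kb) and Gdf3 (0.684 kb). They were also found at Chrdl2, a relative of chordin (0.141 kb), and at the Smad corepressor genes Ski (0.308 kb) and Skil (0.494 kb). Rgma, a Bmp co-receptor, had no peak in a territory of 395 kb. These examples were chosen after their values were seen. Of the ligand genes in this set, Gdf3, Gdf5, Gdf6, Gdf10, Gdf11, Mstn, Bmp3, Bmp8b and Bmp15 had a peak. The ligand genes Gdf1, Gdf7, Gdf9, Gdf15, Bmp8a, Inha and Amh had none. Expression of the pathway genes was not analysed here.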

How the data were processed

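Per the labels and the study's methods, the authors aligned reads with bowtie2 (mm9), discarded duplicates with Picard 1.136, called peaks with MACS14 at a fixed p-value and removed blacklisted regions. They named for each peak the gene with the closest TSS (annotatePeaks.pl). The deposited values are positions, distances in bp and gene names; 1 repeated header line was skipped.

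Here rows were matched to the 41 genes by symbol. These genes, their roles and the other lists were chosen with earlier results of these data known. Protein-coding genes and territories came from GENCODE vM1 and sequence from NCBIM37 (mm9). Runs, CT or GA repeats of 4 units, TAAT and CTAATG (both strands) were counted in the central 200 bp. Upstream and downstream follow the sign of the listed distance. Wilson intervals (95%) cover counting error only. The counting code was tested on simulated data. All 41 genes were named, with the position of the closest peak except at Lefty1 and Id1. Some items are not reported here. By rule, sequences could be printed for closest peaks within 10 kb (18 genes, 15 outside untranslated and barred regions) and for the longest run, of which 7 are shown, with 3 chosen later. Alternatives changed distance, width, run, gene assignment, peak number and role. Python 3.11.15, numpy 2.4.6, scipy 1.17.1 and matplotlib 3.10.9 were used.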

Additional observations from a re-analysis of the deposited data

How the results depend on the processing

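Of 58 alternative values of 8 results, 36 stayed within 1.5 times of the reported value and 22 did not. With peaks within 10 kb only, the genes with a peak fell from 35 to 18 (ligands 7, receptors 1, Smads 3) and the peaks from 151 to 22, and within 100 kb 95 peaks were left. Without peaks that held a run of 25 bases, 8 genes and 8 peaks were left (ligands 1, receptors 3, Smads 3, antagonists 1, Id targets 0), and without runs of 40 bases 12 genes and 14 peaks (ligands 2, receptors 5, Smads 3, antagonists 2, Id targets 0). At least 2 peaks were found at 4 receptors. Peaks wider than the list's median numbered 69. These settings leave fewer peaks by construction. With territories of the gene plus 100 kb on either side, the median by position was 1.98 peaks per 100 kb, against 1.54 for all genes. No paired analysis was possible because 1 peak list of 1 sample was used, and no replicate could be left out.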
